A study of Mus musculus with 220 samples.

Results

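Blood endothelial cells (BEC) of mouse lymph node were divided by their own level of Fabp4, the fatty acid binding protein of capillary and adipose cells, and all other genes were compared between the resulting sets. A cell with an Fabp4 value of 50 FPKM or more was called Fabp4-high and a cell below it Fabp4-low, which gave 22 Fabp4-high and 10 Fabp4-low cells among 32 BEC, in a series of 220 cells. FPKM gives the sequenced fragments of a gene per kilobase of its transcript, scaled to all mapped fragments of the cell. The study profiled lymph node cells of C57BL/6 mice one by one after sorting, with 1 library per cell, to compare high endothelial cells (HEC), the tall cells of the venules through which lymphocytes enter the node, with BEC. All 32 BEC came from homeostatic, untreated animals, and so did 79 HEC that are used here as a further point of comparison. No genotype beyond the strain, and no age, animal, capture plate or sorting gate, is given in the sources used here, nor is the handling of doublets. No label tells the 2 sets apart, the measured Fabp4 level is all that divides them, and each counts as 1 sample.

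Fabp4 itself is described only as the basis of the division. Its lowest, median and highest values were 55.6, 744 and 12832 FPKM in Fabp4-high cells and 1.03, 9.81 and 18.1 FPKM in Fabp4-low cells. The members nearest the limit were BEC 32 at 55.6 FPKM and BEC 21 at 227 FPKM on the high side, and BEC 4 at 18.1 FPKM and BEC 22 at 17.5 FPKM on the low side. No cell lay between 18.1 and 55.6 FPKM.

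Endothelium differs along the vessel tree. Capillary cells of tissues that burn or store fat carry GPIHBP1, which holds lipoprotein lipase on the luminal surface, and CD36, which takes up the released fatty acids, while FABP4 carries fatty acids inside the cell and is driven by PPAR gamma and by VEGF and Notch signals. Arterial cells depend on Notch signalling and SOX17 and carry ephrin-B2 and the connexins 37 and 40, and venous cells carry EPHB4 and the transcription factor COUP-TFII. In lymph nodes, arterioles feed a capillary bed that drains into high endothelial venules.

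Since the 2 sets are single samples of cells, no test was possible, and all comparisons are descriptions without a replicate check. Levels are means ± SD over cells of log2(FPKM + 1), and differences are Fabp4-high minus Fabp4-low on that scale. Where 3 FPKM values are given for a set, they are those of its lowest, median and highest cell. A gene was counted as higher or lower when the difference reached 1 in size. Among 7832 genes at 1 FPKM or more in over 10% of the cells of at least 1 set, 1018 (13%) were higher and 770 (9.83%) lower, and the median difference was 0.13. None of the 7832 genes separated the sets without overlap (0% above and 0% below). The spread between cells was large, and only 74 of the 1788 genes past the limit differed by at least their own SD over cells. Over all 24049 gene symbols, 77.1% of BEC values were 0, and 10431 of these genes were at 0 in every BEC.

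Pecam1, the adhesion molecule CD31, was at 14.5 FPKM or more in every Fabp4-high cell and at 12.1 FPKM or more in every Fabp4-low cell, and Cdh5, VE-cadherin, was at 1.16 and 34.2 FPKM or more in the same sets. Of 12 blood endothelial markers, 5 were at 1 FPKM or more in all 32 BEC, whereas Cldn5 was in 6 of 22 Fabp4-high and 1 of 10 Fabp4-low cells and Erg in 7 and 3. Approximate depth ranged from 1404986 to 3139386 fragments in Fabp4-high cells and from 1360738 to 3241471 in Fabp4-low cells, and the medians of genes at 1 FPKM or more were 3132 and 2793. No pair of the 496 pairs of BEC correlated above r 0.535 on log2 values, and no pair stood apart as one library deposited again. Only BEC 30, a Fabp4-high cell, carried 3 or more markers of another cell type at 10 FPKM, with 6 of 10 pericyte and smooth muscle markers, among them Rgs5 at 674 FPKM and Kcnj8 at 279 FPKM. All 8 adipocyte markers, Adipoq and Plin1 included, were at 0 in every BEC.

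Promoter sequences are given for Cd36 and Gja4, the genes of lipid uptake and of arterial identity with the largest differences. Each runs from 250 bases before the transcription start to 50 bases after it in RefSeq on build GRCm38.p6, 5′ to 3′ along the minus strand. Capitals mark exact matches, on either strand, to TGGGAA (the core of RBPJ, the DNA-binding partner of Notch), AACAAT (the core of SOX factors) or AGGTCA (the core of nuclear receptors such as PPAR gamma, here read on the other strand as TGACCT).
Cd36 promoter, chr5:17835847-17836146: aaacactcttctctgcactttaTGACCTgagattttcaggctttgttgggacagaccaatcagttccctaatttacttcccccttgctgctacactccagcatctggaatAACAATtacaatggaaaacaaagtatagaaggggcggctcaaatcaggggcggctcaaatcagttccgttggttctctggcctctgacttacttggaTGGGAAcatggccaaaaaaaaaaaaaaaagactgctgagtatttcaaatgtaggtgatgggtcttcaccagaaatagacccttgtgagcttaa
Gja4 promoter, chr4:127313990-127314289: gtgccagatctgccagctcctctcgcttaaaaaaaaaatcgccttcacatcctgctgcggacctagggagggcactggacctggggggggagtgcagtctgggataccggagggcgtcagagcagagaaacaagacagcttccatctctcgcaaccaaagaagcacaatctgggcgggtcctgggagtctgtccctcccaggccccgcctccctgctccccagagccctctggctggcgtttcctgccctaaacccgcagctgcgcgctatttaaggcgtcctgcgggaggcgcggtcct

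The Cd36 window held 1 match to each motif, none overlapping another, and the Gja4 window held none of these letters. The Cd36 start used lies inside the GENCODE M21 span of the gene (17781690 to 17888801), not at its 5′ end. No other start of Cd36 was searched. Among 5915 promoters of genes past the filter on low values, TGGGAA stood in 22.6%, AACAAT in 5.53% and AGGTCA in 11.8%. Of the 15 genes with the largest positive differences, 12 had a promoter in the table, and 2, 1 and 1 of them held these motifs. Of the 15 with the largest negative differences, 8 had one, and 4, 1 and 1 held them. A match is a stretch of letters and not a measured binding site.

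Capillary and lipid uptake genes did not all differ in the same direction between the sets. In 50% of the cells of a set, 2716 genes were at 1 FPKM or more. Predicted genes, clone names, ribosomal protein, haemoglobin and small RNA genes among them were not ranked. Of the rest, Cd36 on chromosome 5 (17781690 to 17888801 in GENCODE M21, GRCm38) had the largest difference, 4.91 on the log2 scale. Gpihbp1 on chromosome 15 (75596628 to 75599481) differed by 0.34 and Rgcc on chromosome 14 (79288756 to 79301645) by -1.68. Of 18 capillary and lipid uptake genes, 15 passed the filter on low values, with 5 higher, 3 lower and 7 between, and a median of 0.43 against 0.13 over all genes. Among all genes 13% were higher and 9.83% lower. Of the 5 higher members, Meox2, Pparg and Slc27a3 passed the filter through the Fabp4-high cells alone, which fixed their direction, so the count and the median are descriptions only, here and for the lists below. With no filter the median of all 18 genes was 0.33. The median lay between 0.18 and 0.28 without BEC 5, 7, 18 or 31 (Fabp4-high) or BEC 2, 8 or 22 (Fabp4-low), and between 0.64 and 0.74 without BEC 3, 13, 21 or 30 (Fabp4-high) or BEC 14 or 25 (Fabp4-low). Leaving out a Fabp4-low cell lets more genes past the filter, 9131 without BEC 2 against 7832, so the members under the median can differ.

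Cd36 reached a lowest, median and highest value of 0.10, 484 and 3962 FPKM in Fabp4-high cells, against 0, 3.10 and 1049 FPKM in Fabp4-low cells. It was at 10 FPKM or more in 18 of 22 Fabp4-high and 2 of 10 Fabp4-low cells, so the sets overlapped at both ends. The means were 7.87 ± 3.54 and 2.96 ± 2.89 (SD, n = 22 and 10 cells, here and below), and the difference stayed between 4.58 and 5.69 with any 1 cell left out. In 24 of 79 HEC Cd36 was at 1 FPKM or more.

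Gpihbp1 showed another pattern. Its values were 1.44, 926 and 4441 FPKM in Fabp4-high cells and 2.03, 1336 and 4871 FPKM in Fabp4-low cells. Both sets consisted of a majority of cells at very high levels and a few below 10 FPKM, 4 of 22 Fabp4-high and 3 of 10 Fabp4-low cells. The difference of 0.34 turned to -0.39 without BEC 2, to -0.39 without BEC 22 and to -0.30 without BEC 12, so no direction can be given. Its mean was 8.58 ± 3.54 in Fabp4-high cells, 8.24 ± 4.43 in Fabp4-low cells and 1.39 in HEC.

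Rgcc, a cell cycle regulator known as a capillary marker, was at 1.24, 919 and 2420 FPKM in Fabp4-high cells and at 78.96, 1016 and 4351 FPKM in Fabp4-low cells. All 10 Fabp4-low cells were above 10 FPKM, as were 18 of 22 Fabp4-high cells, and the medians lay close together. The 4 Fabp4-high cells below 10 FPKM were BEC 7, 17, 18 and 21, and the mean difference was -1.68. Rbp7, a retinol binding protein of capillaries, had means of 8.03 ± 3.51 and 7.12 ± 4.29, and Cd300lg, an adhesion molecule of lymph node vessels, 6.91 ± 3.04 and 6.90 ± 2.27 in Fabp4-high and Fabp4-low cells.

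Rarer transcripts of the list differed in both directions. Meox2, a homeobox factor that in mouse heart acts on endothelial fatty acid uptake, was at 10 FPKM or more in 6 of 22 Fabp4-high and 0 of 10 Fabp4-low cells (difference 1.90), whereas its relative Meox1 was at that level in 9 and 8 cells (difference -1.67). Aqp7, a glycerol channel, reached 10 FPKM in 8 and 1 cells (difference 1.59), and Aqp1, a water channel, in 11 and 6 (difference -1.57). Pparg, which encodes PPAR gamma, and the fatty acid transport protein gene Slc27a3 were at 0 in every Fabp4-low cell and at 10 FPKM or more in 3 and 4 of 22 Fabp4-high cells (differences 1.06 and 1.12). With 10 cells in the Fabp4-low set, 0 cells still allow a share of up to 30.8% (exact Clopper-Pearson interval, 95%, counting error over cells only). Mgll, the monoacylglycerol lipase that releases fatty acids from monoglycerides, was among the 15 largest differences, with 0, 92.3 and 544 FPKM in Fabp4-high and 0, 0.425 and 387 FPKM in Fabp4-low cells. It passed 10 FPKM in 17 of 22 and 1 of 10 cells, and the difference was 3.90.

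Fatty acid oxidation was followed as a list of 18 genes, of which 14 passed the filter on low values, 4 higher, 1 lower and 9 between, with a median of 0.30, beside 13% higher and 9.83% lower among all genes. Eci2 passed the filter through Fabp4-high cells alone. The 4 higher genes were Eci2 (2.73) and Acaa2 (1.16), which act in the breakdown of unsaturated and of straight chains, the acyl-CoA dehydrogenase gene Acadvl (2.16) and the electron carrier gene Etfb (2.14). Ech1 was lower by -1.06, and Cpt1a, which admits fatty acids to mitochondria, had means of 1.29 ± 2.18 and 1.29 ± 2.10. Of 20 respiratory chain genes, 2 were higher, 3 lower and 15 between, with a median of -0.36, shares near those of all genes.

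**Figure D1:**
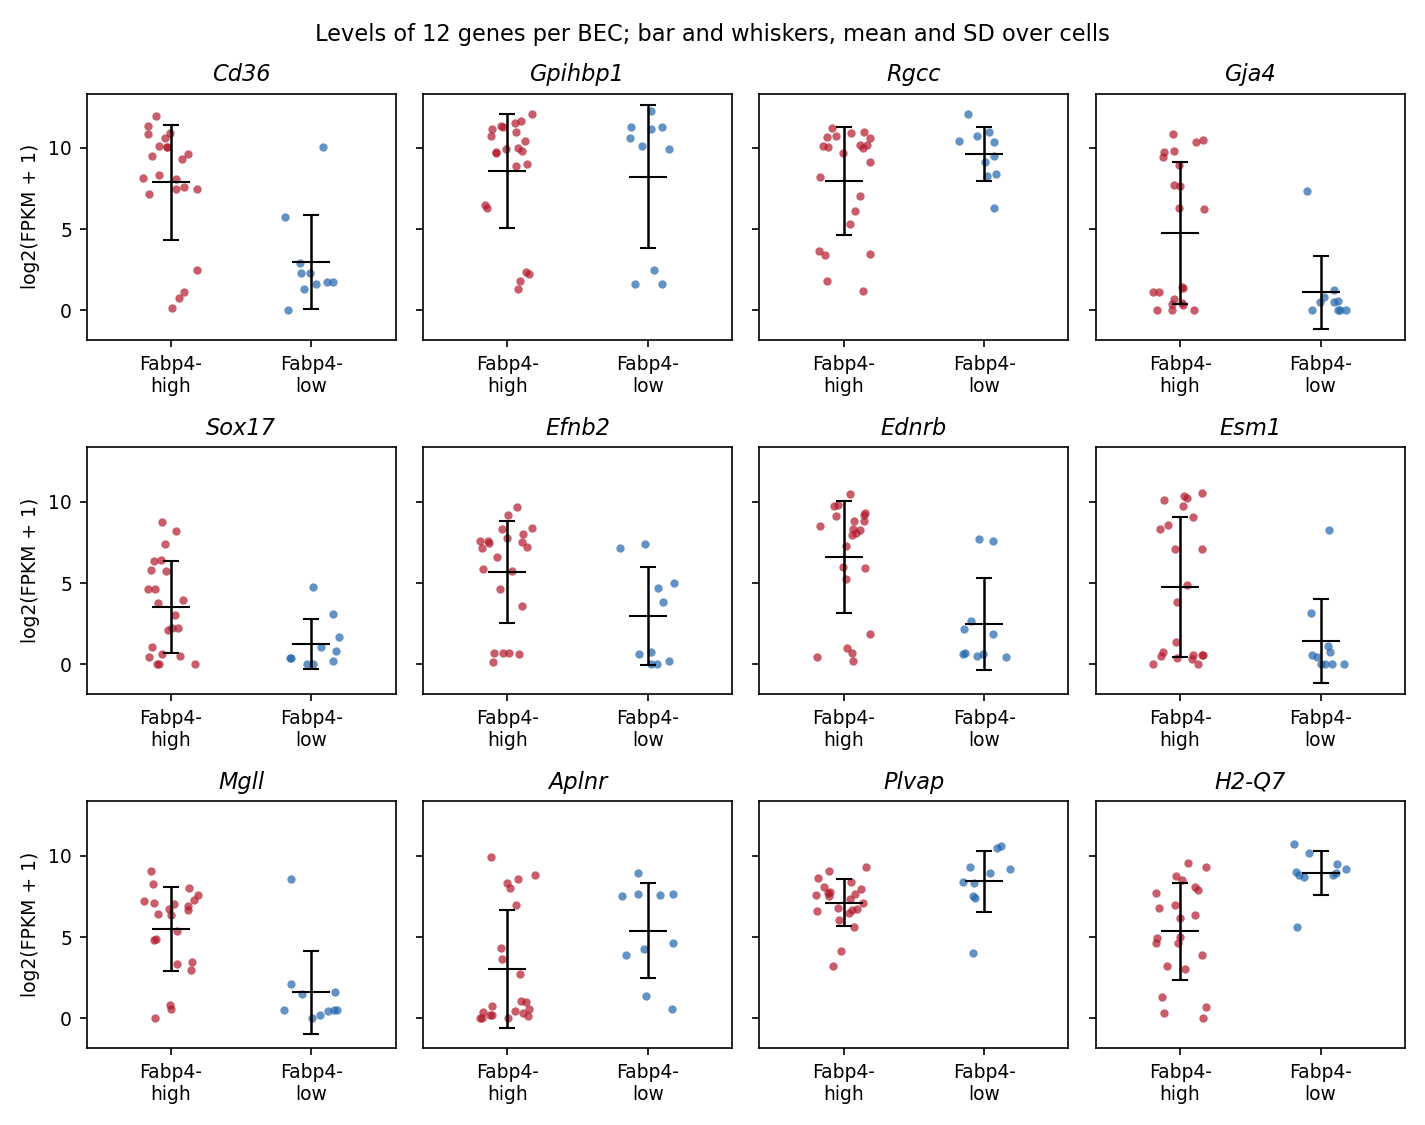
Levels of 12 genes in single BEC as log2(FPKM + 1), with Fabp4-high cells (22, red) left of Fabp4-low cells (10, blue) in each panel; each point is a cell and bars with whiskers are means and SD over cells. Cd36, Gja4, Ednrb and Mgll are high in many red and few blue cells, Gpihbp1 is spread alike in both sets, and Aplnr and H2-Q7 sit higher in the blue cells, with overlap in every panel.

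Arterial genes were higher in a portion of the Fabp4-high cells. Of 25 arterial and Notch pathway genes, 20 passed the filter on low values, and 8 were higher, 1 lower and 11 between, with a median of 0.49 against 0.13 over all genes. Among all genes 13% were higher, and of the 8 members Hey1 and Fbln5 passed the filter through Fabp4-high cells alone. With no filter the median was 0.34. Leaving out BEC 13, BEC 16 or BEC 27, all Fabp4-high, moved the median to 0.26, 0.31 or 0.15, so 3 cells each moved it by over 1.5 times.

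Gja4 on chromosome 4 (127311421 to 127314039), which encodes connexin 37, a gap junction protein of arterial endothelium, had values of 0, 37.7 and 1847 FPKM in Fabp4-high cells and 0, 0.435 and 161 FPKM in Fabp4-low cells. It was either high or nearly absent, at 73.7 FPKM or more in 11 of 22 Fabp4-high cells and 1.72 FPKM or less in the others, and above 1.32 FPKM in 1 of 10 Fabp4-low cells, BEC 25. The share of cells at 1 FPKM or more was 68.2% in Fabp4-high cells (exact 95% interval 45.1% to 86.1%) and 20% in Fabp4-low cells (2.52% to 55.6%). Means were 4.75 ± 4.39 and 1.1 ± 2.23 and the difference 3.65, between 3.36 and 4.35 with 1 cell left out.

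Sox17 on chromosome 1 (4490931 to 4497354), a transcription factor of arterial fate, had a lower median than Gja4 among Fabp4-high cells. Its values were 0, 9.78 and 426 FPKM in Fabp4-high cells and 0, 0.525 and 26.3 FPKM in Fabp4-low cells, a difference of 2.30 with overlapping sets. It passed 10 FPKM in 11 of 22 Fabp4-high cells and 1 of 10 Fabp4-low cells.

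Among Notch ligands and targets, Jag1, a ligand, was at 0, 16.98 and 190 FPKM in Fabp4-high cells and at 0, 0.225 and 18.4 FPKM in Fabp4-low cells, a difference of 2.29. Hey1, a repressor switched on by Notch, was above 10 FPKM in 8 of 22 Fabp4-high cells and never above 0.74 FPKM in the 10 Fabp4-low cells, a difference of 2.41. The arterial ligand Efnb2, ephrin-B2, reached 0.10, 145 and 822 FPKM in Fabp4-high cells and 0, 7.04 and 171 FPKM in Fabp4-low cells, a difference of 2.72. Not every gene of the pathway took this direction. The ligand Dll4 (-0.20) and the receptors Notch1 (-0.14) and Notch4 (0.34) differed by less than 1, and Sox18, a relative of Sox17, was lower by -1.1.

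The remaining higher members were Fbln5 (1.97) and Fbln2 (1.08), fibulins of the elastic fibre, and Unc5b (1.01), a netrin receptor. Fbln5 passed 10 FPKM in 7 of 22 Fabp4-high and 0 of 10 Fabp4-low cells. Gja5, connexin 40, the partner of connexin 37 in larger arteries, was at 10 FPKM or more in 2 of 22 and 0 of 10 cells (difference 0.61), and Hey2 was at 0 in all 32 BEC.

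Capillary and arterial transcripts were found in the same cells. Of the 12 BEC with Gja4 at 10 FPKM or more, 11 of them Fabp4-high, 10 also had Gpihbp1 at that level, 10 had Cd36, 7 had Sox17 and 6 had Hey1. All 12 had Plvap, the protein of fenestral and caveolar diaphragms, and 3 had the venous receptor gene Aplnr. Of the 20 BEC without Gja4 at that level, 15 had Gpihbp1, 10 had Cd36, 5 had Sox17, 2 had Hey1, 19 had Plvap and 13 had Aplnr. Efnb2 was at that level in 9 of the 12 and 13 of the 20, Jag1 in 7 and 8, and Fbln5 in 5 and 2. Among Fabp4-high cells alone, Cd36 was in 9 of the 11 with Gja4 and in 9 of the 11 without it. In the same cells Efnb2 was in 8 of the 11 with Gja4 and in 9 of the 11 without it. BEC 3 and BEC 13 alone had Gja4 without Gpihbp1.

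Spearman's rho over the 32 cells, which share sorting and library method but differ in gene number, was 0.67 between Gja4 and Hey1, 0.46 between Gja4 and Sox17, 0.41 between Gja4 and Cd36, -0.18 between Gja4 and Gpihbp1 and -0.42 between Gja4 and Aplnr. Within the 22 Fabp4-high cells the values for the same partners were 0.56, 0.40, 0.16, -0.14 and -0.33. The partners kept their order. Among 4579 genes at 1 FPKM or more in 25% of BEC, the 5 most alike to Gja4 over the 32 cells were Cs (0.71), Pdgfd (0.70), Hey1 (0.67), Entpd1 (0.65) and Elovl5 (0.64). Those most alike to Gpihbp1 included Clic5 (0.66), Med8 (0.51), Sparc (0.49) and Actr3 (0.49).

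Averaged over the list in each cell, arterial genes stood at 2.71 ± 1.13 in Fabp4-high cells and 1.85 ± 0.45 in Fabp4-low cells, and the 3 highest cells were BEC 13 (5.68), BEC 16 (4.69) and BEC 27 (4.12). Their spread was wider among Fabp4-high cells than among Fabp4-low cells. The arterial mean of a cell went with the number of genes detected in it (rho 0.60 over 32 cells), and the part of gene number in the result was not tested. Among the 19 and 9 cells in the range of gene numbers that both sets share, the median difference was 0.52 for arterial and -0.30 for venous genes, against 0.49 and -0.56 in all cells. BEC 13 and BEC 16 lay outside that range. The filter then passed 9515 genes against 7832, and the median of all genes was -0.10 against 0.13. The list medians can thus cover other members than in all cells. The venous mean of a cell also went with its number of detected genes (rho 0.50).

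**Figure D2:**
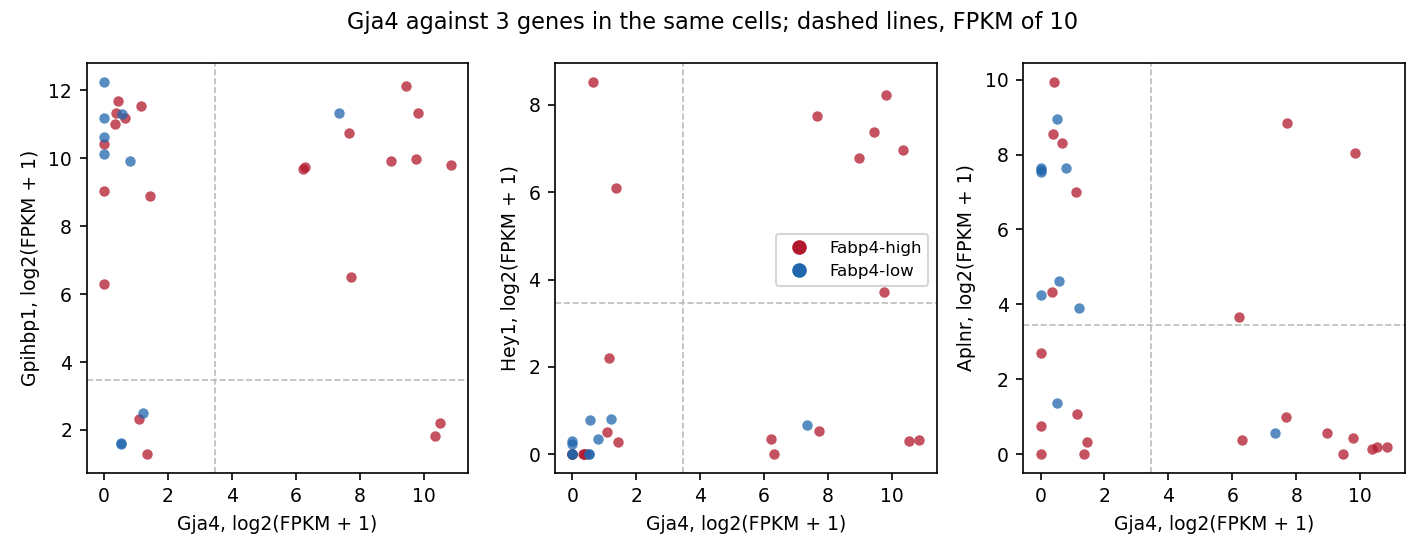
Gja4 (x axis) against Gpihbp1, Hey1 and Aplnr (y axes) in the same 32 BEC, all as log2(FPKM + 1); red points are Fabp4-high and blue points Fabp4-low cells, and dashed lines mark 10 FPKM. Of the 12 cells right of the vertical line, 11 are red, 10 lie above the Gpihbp1 line, 6 above the Hey1 line and 3 above the Aplnr line.

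Several venous genes were lower in Fabp4-high cells. Of 16, 12 passed the filter on low values, 0 higher, 5 lower and 7 between, with a median of -0.56 against 0.13 over all genes; 9.83% of all genes were lower. The largest difference was that of Aplnr, the apelin receptor, with 0, 0.850 and 986 FPKM in Fabp4-high cells and 0.470, 104 and 490 FPKM in Fabp4-low cells. It passed 10 FPKM in 8 of 22 and 8 of 10 cells, and the difference was -2.38. The others were Il6st (-1.68), the shared receptor chain of the interleukin-6 family, Ephb4 (-1.34), the venous receptor of ephrin-B2, Lrg1 (-1.26), a secreted glycoprotein of venules, and Nr2f2 (-1.03), which encodes COUP-TFII. Nr2f2 was at 10 FPKM or more in 2 of 22 and 2 of 10 cells, so this difference rested on few of them. Among Fabp4-low cells Ephb4 was at 105 to 343 FPKM in BEC 2, 8, 14 and 25 and at 9.61 FPKM or less in the others. Il6st was at 186 to 694 FPKM in BEC 4, 6 and 12 and at 9.57 FPKM or less in the others. These 2 differences thus rested on part of the Fabp4-low cells. In Fabp4-high cells Ephb4 and Il6st reached 104 and 185 FPKM. The venous median shrank to -0.16 with no filter on low values, to -0.32 by medians of cells and to -0.34 with a pseudocount of 10.

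In HEC the mean level of Aplnr was 1.2, below the 3.02 and 5.40 of Fabp4-high and Fabp4-low BEC, while those of Il6st, Lrg1 and Nr2f2 were 7.24, 9.99 and 4.95, above both BEC sets. Glycam1, the sialomucin of high endothelial venules, was at 32.8, 64.2 and 156 FPKM in Fabp4-high cells and 33.99, 103 and 594 FPKM in Fabp4-low cells, against a mean log2 level of 15.13 in HEC. Of 7 high endothelial markers past the filter, Chst2, a sulfotransferase, was lower (-1.43) and 6 lay between, with a median of -0.31. The venous median kept its sign and lay between -0.23 and -0.36 without BEC 1, 4, 6, 14, 20, 22 or 25, all Fabp4-low, and between -0.95 and -0.92 without BEC 7, 28 or 31, all Fabp4-high. Leaving out a Fabp4-low cell also let more genes past the filter, 9216 without BEC 1 against 7832 in all cells. Those medians need not cover the same members, and the part of the single cell in the shift was not tested.

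Some genes of an angiogenic and tip cell list were higher in Fabp4-high cells. Of 16 such genes 13 passed the filter, 5 higher, 0 lower and 8 between, with a median of 0.50, beside 13% higher among all genes. Adm, the adrenomedullin gene, was at 0 in all BEC. Apln, the apelin gene, was at 0 in every Fabp4-high cell and at 4.73 FPKM in BEC 20, a Fabp4-low cell. Ednrb, the endothelin B receptor, was at 0.13, 288 and 1465 FPKM in Fabp4-high cells and at 0.37, 1.605 and 211 FPKM in Fabp4-low cells. It passed 10 FPKM in 17 of 22 and 2 of 10 cells, a difference of 4.12, and its mean in HEC was 0.28.

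Ramp2, which makes the calcitonin-like receptor respond to adrenomedullin, was at 2.16, 316 and 1115 FPKM in Fabp4-high cells and at 0.37, 6.42 and 220 FPKM in Fabp4-low cells, a difference of 3.38. Every Fabp4-high cell had it at 1 FPKM or more, as did 8 of 10 Fabp4-low cells. Its mean was 8.05 in HEC, against 6.96 and 3.59 in Fabp4-high and Fabp4-low BEC. Esm1, the proteoglycan endocan of tip cells, was at 0, 20.7 and 1533 FPKM in Fabp4-high cells and at 0, 0.415 and 309 FPKM in Fabp4-low cells, a difference of 3.34, and it was below 1 FPKM in all 79 HEC. Kdr, the VEGF receptor 2 gene, was present in all BEC and differed by 1.38, and Plxnd1, a semaphorin receptor gene, by 1.17. Among the 22 Fabp4-high cells, 7 of the 11 with Gja4 at 10 FPKM or more had Ednrb at that level, as did 10 of the 11 without Gja4, and rho between the 2 genes was -0.33.

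Of general endothelial genes, 4 of 12 blood endothelial markers were higher, Esam (2.01), Kdr, Cldn5 (1.32) and Pecam1 (1.24), the first and last of them adhesion molecules of cell contacts and Cldn5 a tight junction protein. None was lower, and the median was 0.23, beside 13% higher among all genes. Cldn5 passed the filter through Fabp4-high cells alone. All 11 genes of flow response and anticoagulation that passed the filter lay between the limits (median 0.16), Klf2 (-0.72), Klf4 (0.02) and Thbd (-0.80) included. Of 10 genes of caveolae and diaphragms, Ptrf (1.26) and Ehd4 (1.07) were higher and Plvap (-1.32) lower, with a median of -0.04, counts close to the shares of all genes. Plvap was at 8.46, 175 and 636 FPKM in Fabp4-high cells and at 15.5, 419 and 1555 FPKM in Fabp4-low cells, so it was high in nearly all cells of both sets.

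In the basement membrane list 3 of 17 genes were higher, Nid1 (1.71), Timp3 (1.44) and Lamc1 (1.27), and 3 were lower, Col4a2 (-2.02), Igfbp7 (-1.16) and Col15a1 (-1.02), with a median of -0.06, beside 13% and 9.83% of all genes, so neither share stood far from the background. Col4a2, a chain of type IV collagen, was at 0.30, 49.1 and 503 FPKM in Fabp4-high cells and at 57.9, 126 and 333 FPKM in Fabp4-low cells, while its partner chain Col4a1 differed by -0.40. Of 6 chemokine genes that passed the filter, Cx3cl1 (1.52) and Cxcl9 (1.06) were higher and Pf4 (-1.27) lower, with a median of 0.69, too few genes to read against 13% and 9.83%. Cx3cl1 passed the filter through Fabp4-high cells alone and Pf4 through Fabp4-low cells alone, at 210 FPKM in BEC 8 and 59.4 FPKM in BEC 14. Cxcl12, at 58.5 FPKM or more in every Fabp4-high cell and 3.37 or more in every Fabp4-low cell, differed by 0.93. The 6 cell cycle genes that passed lay between the limits (median 0.08).

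**Figure D3:**
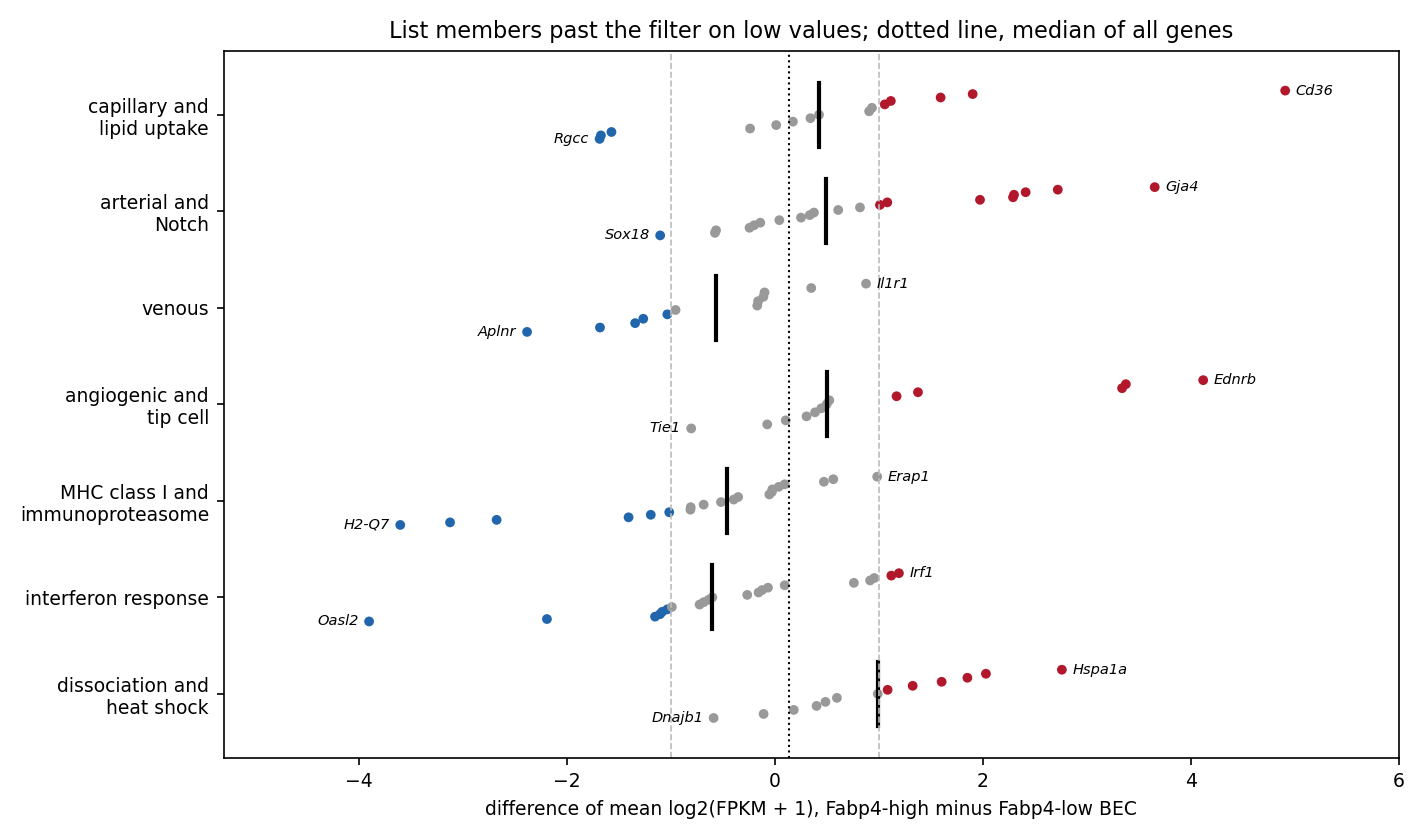
Differences of mean log2(FPKM + 1), Fabp4-high minus Fabp4-low BEC (x axis), for the members of 7 gene lists past the filter on low values; each point is a gene, red at 1 or more and blue at -1 or less, black bars are list medians and the dotted line is the median of all genes (0.13). Cd36, Gja4 and Ednrb stand farthest right and Oasl2 and H2-Q7 farthest left, and list medians lie between -0.60 and 0.99.

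Several antigen presentation and interferon genes were lower in Fabp4-high cells. The list of MHC class I and immunoproteasome genes was drawn up after values had been seen, so its counts are no independent support. Of its 20 members 0 were higher and 6 lower, with a median of -0.46, beside 13% and 9.83% of all genes. H2-Q7, a class I molecule outside the classical set, was at 0, 51.1 and 742 FPKM in Fabp4-high cells and at 49.1, 508 and 1683 FPKM in Fabp4-low cells. All 10 Fabp4-low cells and 16 of 22 Fabp4-high cells had it above 10 FPKM, and the difference was -3.60.

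H2-T9 (-3.12), the immunoproteasome subunit gene Psmb8 (-2.68), the peptide transporter genes Tap1 (-1.41) and Tap2 (-1.19) and the proteasome activator gene Psme2 (-1.02) were also lower. H2-Q7 and H2-T9 belong to families of near-identical copies among which reads can be split, so their values are uncertain. B2m, the light chain of class I, differed by -0.35, and the classical genes H2-K1 and H2-D1 by 0.47 and -0.52. Of 21 interferon response genes 2 were higher, Irf1 (1.19) among them, and 6 lower, with a median of -0.60, beside 13% and 9.83% of all genes. Oasl2, of the oligoadenylate synthase family, was at 0, 0.645 and 365 FPKM in Fabp4-high cells and at 0.90, 178 and 708 FPKM in Fabp4-low cells, a difference of -3.90, and Usp18, which limits interferon signalling, differed by -2.19. Isg15 (-0.07) and Ifit1 (0.09), both induced by interferon, differed by less than 1.

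Outside these lists, the largest positive differences included Map1lc3b (4.63), the autophagosome protein LC3B, Mcmbp (4.36), a partner of the replicative helicase, Ctsz (3.58), a lysosomal protease, Traf7 (3.51), Slc50a1 (3.41), a sugar transporter, Uqcrb (3.33), a subunit of respiratory complex III, Gstm1 (3.29), a glutathione transferase with close copies, Zfp36l2 (3.25), which promotes mRNA decay, and Pdgfd (3.17), a growth factor for mural cells. Map1lc3b was at 10 FPKM or more in 20 of 22 Fabp4-high and 3 of 10 Fabp4-low cells, and Mcmbp in 18 and 2. Uqcrb passed this level in all 22 Fabp4-high cells and in 6 of 10 Fabp4-low cells. Traf7 and Pdgfd passed the filter on low values through Fabp4-high cells alone, which fixed their direction. Map1lc3b and Uqcrb had mean levels of 7.44 and 8.93 in HEC, nearer to those of Fabp4-high BEC (7.95 and 8.49) than of Fabp4-low BEC (3.32 and 5.16).

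The largest negative differences included Marc2 (-4.43), a mitochondrial reductase, the zinc finger gene Zfp871 (-4.05), BC031181 (-3.94), Caml (-3.17), which helps insert membrane proteins, Lamtor2 (-3.15), of the lysosomal Ragulator complex, and Senp6 (-3.00), a SUMO protease. The others were the transcription factor gene Usf2 (-2.99), the ATP synthase subunit gene Atp5o (-2.98), Pop7 (-2.96), of ribonuclease P, Hexa (-2.95), a lysosomal hexosaminidase, the dynein light chain gene Dynlt1b (-2.91), which has near-identical copies, and Marcks (-2.84), an actin-binding substrate of protein kinase C. Marc2 was at 10 FPKM or more in 9 of 22 Fabp4-high and 9 of 10 Fabp4-low cells. Usf2 reached it in 0 of 22 and 5 of 10 cells, and Pop7 in 0 of 22 and 4 of 10. Usf2 and Pop7 passed the filter on low values through Fabp4-low cells alone, which fixed their direction.

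Genes induced by tissue dissociation also differed. Of 14 dissociation and heat shock genes 13 passed the filter, 6 higher and 0 lower, with a median of 0.99, beside 13% higher among all genes, and Hspa1a passed it through Fabp4-high cells alone. Their summed level had a lowest, median and highest value of 14.8, 909 and 9112 FPKM in Fabp4-high cells and of 16.7, 340 and 7755 FPKM in Fabp4-low cells. Hspa1a, a heat shock protein, differed by 2.76, the immediate early gene Fos by 2.03 and the phosphatase gene Dusp1 by 1.85. Among the 20 and 10 cells in the range of summed levels that both sets share, the list medians were 0.67 for capillary, 0.59 for arterial and -0.91 for venous genes. No marker of this list was at 0 in all BEC, and its part in the other differences was not tested.

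Markers of other cell types were found in both sets. In 8 of 22 Fabp4-high and 2 of 10 Fabp4-low cells at least 2 markers of one other type reached 10 FPKM. Except in BEC 30 these were the lymphatic markers Ccl21a, at 14.8 FPKM or more in every BEC, and Flt4, the receptor of lymphatic growth factor VEGF-C. Flt4 reached 10 FPKM in 7 of 22 and 2 of 10 cells. The lymphatic markers Prox1, Lyve1 and Mmrn1 were below 1 FPKM in all BEC, and Pdpn was at most 5.92 FPKM. Rgs5 also reached 158 FPKM in BEC 27, and Tagln, a smooth muscle marker, 448 FPKM in BEC 29. Summed pericyte and smooth muscle markers ranged from 0 to 1209 FPKM in Fabp4-high cells, the highest being BEC 30, and from 0.04 to 7.36 FPKM in Fabp4-low cells, with Cspg4 at 0. Lymphatic markers summed to 14.97 to 179 and 26.8 to 156 FPKM, with Ccl21a in every cell and Reln at 0 in all of them, fibroblastic reticular markers to at most 19.4 and 5.92 FPKM with Dcn, Lum and Pdgfra at 0, and myeloid markers to at most 1.06 and 69.6 FPKM with Csf1r and Lyz2 at 0. T lymphocyte markers summed to at most 25.7 and 4.84 FPKM, B lymphocyte markers to 3.34 and 3.91, pan-leukocyte markers to 8.86 and 9.35, erythroid markers to 3.10 and 1.35 and platelet markers to 0 and 0.17 FPKM in Fabp4-high and Fabp4-low cells. Without BEC 30 the median was 0.64 for capillary, 0.54 for arterial and -0.56 for venous genes.

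**Figure D4:**
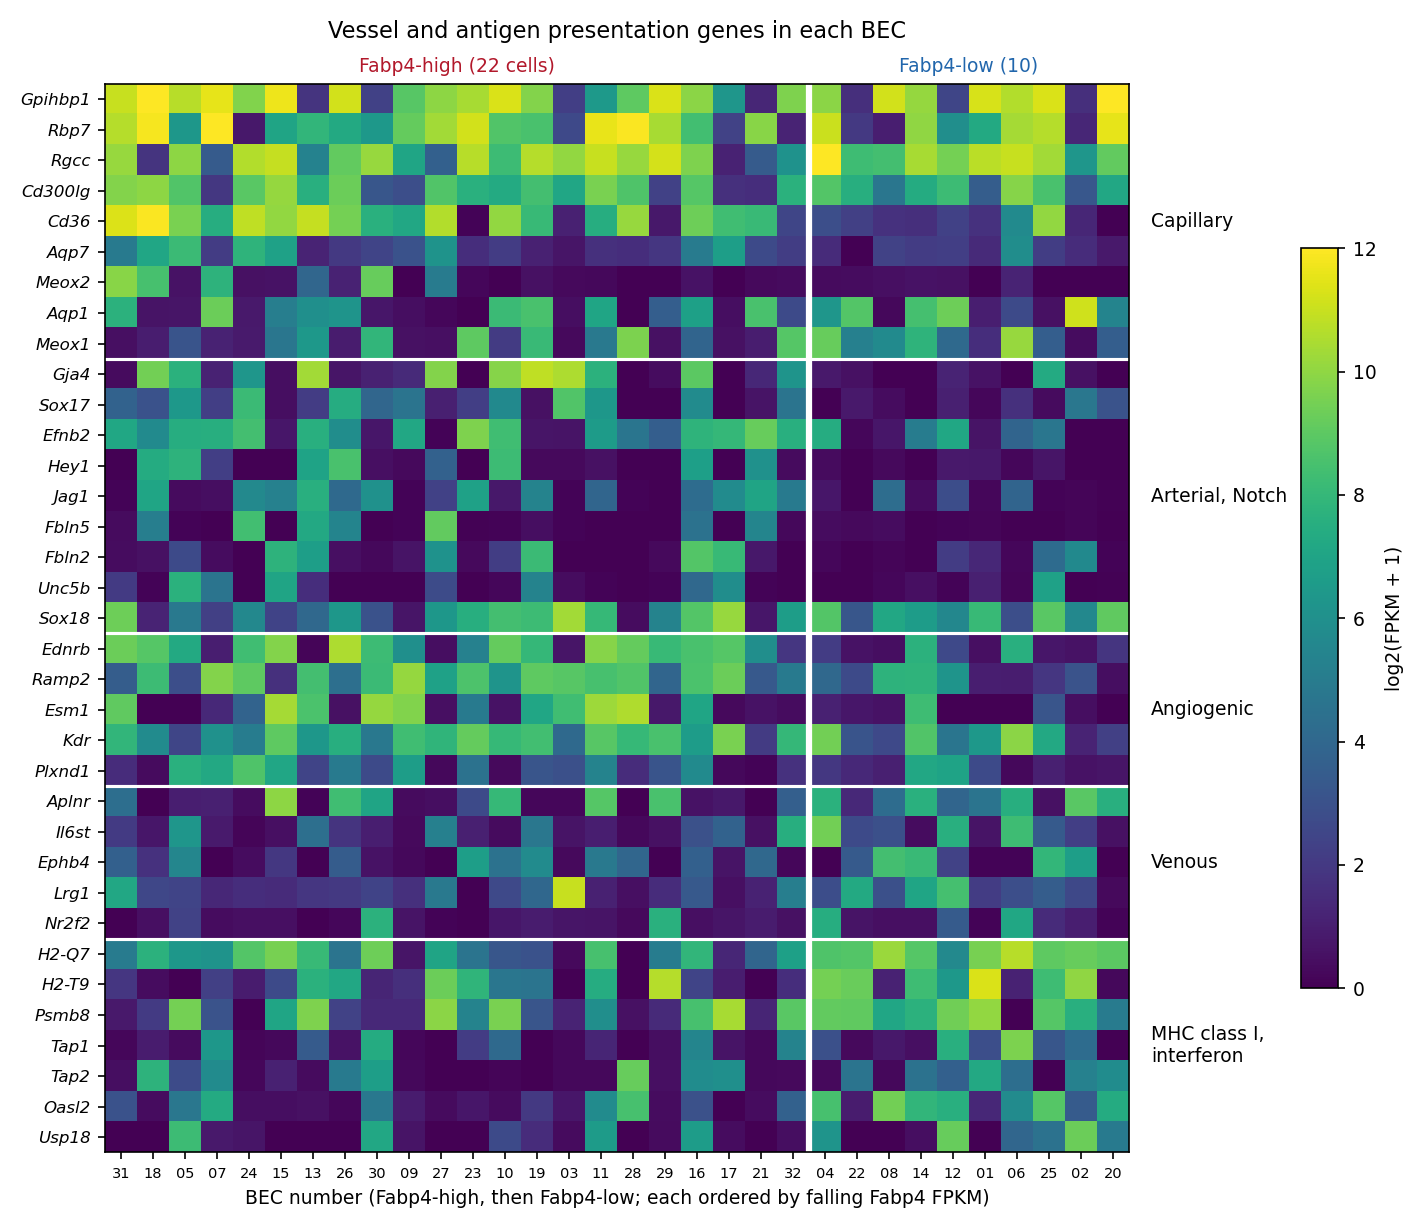
Levels as log2(FPKM + 1), from 0 (dark) to 12 (bright), of vessel, antigen presentation and interferon genes (rows, grouped by list) in the 32 BEC (columns, by cell number), with the 22 Fabp4-high cells left of the white line and the 10 Fabp4-low cells right of it, each ordered by falling Fabp4. Cd36, Ednrb and Ramp2 are bright in most Fabp4-high cells and in few Fabp4-low cells, Gja4 is bright in 11 and 1 cells, and Gpihbp1 and Rgcc are bright in both.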

How the data were processed

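Single BEC were compared on the deposited FPKM table of 24049 gene symbols, which the authors made. Per the labels' protocols, sorted cells went through the Fluidigm C1 instrument for cDNA and through Nextera XT for libraries. CASAVA 1.8, RSEM 1.2.18 and build mm10 were used per the submitters' processing notes, with roles, order, annotation and cell filters not given in the sources used here. A count model does not suit FPKM and none was fitted; depth per cell was estimated from how low values step in 5412 genes with a single transcript. On 10 simulated cells the estimate was 0.982 to 0.992 of the truth. Values were computed here as log2(FPKM + 1), where the pseudocount of 1 understates differences of low genes. Genes at 1 FPKM or more in over 10% of the cells of at least 1 set were kept, Fabp4 excepted. The calculation was tested on simulated data, where 68 genes with a log2 difference of 3 were recovered within 0.179. Zeros may be failed capture.

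The text names the 15 highest and the 15 lowest differences, taken from genes that 50% of the cells of a set held at 1 FPKM or above, without predicted genes, clone names, ribosomal protein, haemoglobin and small RNA genes. The markers Gpihbp1, Cd36, Rgcc, Gja4 and Sox17 and members of 26 gene and marker lists could be named in addition, and 3 listed symbols had no match. Of the genes so named, 2 are not reported here. The division, members and lists were chosen with earlier results of these data known, and the MHC class I list after values had been seen. In the alternative that leaves out cells with 3 markers of another cell type, high endothelial markers were not counted, since Glycam1 and Ccl21a were above 10 FPKM in every BEC. Reads were amplified and carry no molecular tag, so they do not count molecules, and intervals cover counting error over cells only. Python 3.11.15, numpy 2.4.6, pandas 2.3.3, scipy 1.17.1 and matplotlib 3.10.9 were used.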

Additional observations from a re-analysis of the deposited data

Results flagged for a closer look

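Of the 33 named genes, 8 had 1 cell among the 10 Fabp4-low cells that stood far from the rest on the log2 scale, with a gap to its neighbour, as a share of the whole range, above the 95% critical value of the Dixon test. Chance flags about 1 in 20 such groups where values follow a normal distribution; most of these genes were near 0 in most Fabp4-low cells, so that rate cannot be read for them. Gja4 was at 161 FPKM in BEC 25, against 1.32 in the next Fabp4-low cell (gap share 0.835), so 1 cell of this set carried a level found in 11 Fabp4-high cells. BEC 14 stood above the other Fabp4-low cells in 3 genes, Pdgfd at 45.8 against 0.480 FPKM (0.898), Esm1 at 309 against 7.90 FPKM (0.619) and Ctsz at 658 against 24.7 FPKM (0.4999). Mgll was at 387 FPKM in BEC 1, against 3.25 in the next cell (0.757). BEC 2 stood apart in Zfp36l2, at 85.7 against 2.56 FPKM (0.715), and in Traf7, at 1.40 against 0.460 FPKM (0.568), both values near the limit of 1 FPKM used for detection. H2-Q7 was lowest in BEC 12, at 49.1 FPKM, against 409 in the next cell (0.598).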

How the results depend on the processing

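Of the 33 named genes, 32 kept their sign under all 43 other settings, single cells left out included, and Gpihbp1 did not (-0.27 by the ratio of arithmetic means and -0.51 by medians). All but Gpihbp1, Rgcc and Sox17 were named for their large differences in these same cells. Their kept sign was largely fixed by that choice and says little about stability. Rgcc and Sox17, named as markers, also kept their sign. Sizes held less well. Under 11 settings that left no single cell out, 6 of 363 values moved by at least 1 SD over cells, by the ratio of arithmetic means Map1lc3b (1.04), Traf7 (6.58), Usf2 (-4.88) and Pop7 (-6.57), and by medians BC031181 (-7.58) and Oasl2 (-6.76). Gstm1, Uqcrb and Mgll were at 1.21, 1.34 and 1.49 by the ratio of arithmetic means. The counts of genes higher and lower depended on the scale, at 1916 and 1320 with a pseudocount of 0.1 and 248 and 217 with 10, 514 and 436 among genes in 50% of the cells of a set, and 2756 and 1656 by the ratio of arithmetic means, which gave an arterial median of 1.63. By medians of cells 673 genes were higher. All of these are counts out of 7832 genes, except the 514 and 436 out of 2716. In the shared range of detected genes (19 and 9 cells) 784 of 9515 genes were higher and 1186 lower, against 1018 and 770 of 7832 in all cells. A Fabp4 limit of 100 FPKM, which moves BEC 32 alone, gave 820 and 880 of 7847. With 9 Fabp4-low cells a single cell at 1 FPKM passes the filter on low values, so more genes were compared. A limit of 25 FPKM gave the same sets. Rescaling each cell by its median ratio gave 1197 and 949. The median of all genes was 0.13, and lay between -0.10 and 0.28 elsewhere. With 1 cell left out, 7578 to 9237 genes passed the filter, and counts ran from 912 to 1258 higher and from 729 to 929 lower. List medians then ran from 0.18 to 0.74 for capillary, 0.15 to 0.70 for arterial and -0.95 to -0.23 for venous genes. By medians of cells the capillary median was 0, the arterial 0.11 and the venous -0.32. With a pseudocount of 10 the arterial median was 0.23 and the venous -0.34, with 0.1 the arterial 1.01 and the venous -0.83, among genes in 50% of the cells of a set 1.27 and -0.95, and with no filter 0.34 and -0.16. The cause of these shifts was not tested. The shared range of dissociation markers was an alternative chosen after seeing the data. No paired analysis was possible because cell numbers only name cells of 1 group and both sets come from it. With 10 Fabp4-low cells, 1 cell is a large share, which limits every value.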
